A study of Drosophila melanogaster with 18 samples.

Results

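Genes of DNA replication and of the entry into S phase were followed across a knockdown series in S2R+ cells, an adherent Drosophila melanogaster line of embryonic origin with features of blood cells. The 10 genes were chosen by symbol: Mcm2, Mcm3, dpa, Mcm5, Mcm6 and Mcm7 of the replicative helicase, the sliding clamp gene PCNA, the ribonucleotide reductase gene RnrL, and the G1/S genes CycE and Dp. Of these 10, 9 were matched to 1 of the 17559 gene IDs in the count tables, and all 9 were among the 8146 genes expressed highly enough to be tested. Mcm3 was not analysed here, because its current FlyBase ID was not among those IDs. The cells had received double-stranded RNA (dsRNA), which triggers RNA interference, at 10 µg, in 3 treatments over 6 days. The Ime4_dMettl14 cells received dsRNA against Ime4 together with dMettl14, the Fl2d cells against Fl(2)d, the Vir cells against Vir, the Nito cells against Nito and the CG7358 cells against CG7358. The control (Ctr) cells received dsRNA against LacZ, a bacterial gene that is absent from flies, so all 6 groups share the exposure to dsRNA.

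Each group had 3 libraries of polyadenylated RNA, 18 in all, with 15743484 to 18100792 counts per library. Whether a group's 3 libraries stem from different cultures is not stated in the labels, so p-values measure only the spread between these libraries. The targeted genes were down in their own groups: to 10.5% of Ctr for Mettl3 (Ime4) and 14.5% for Mettl14 in the Ime4_dMettl14 cells, 16.8% for fl(2)d, 12.3% for vir, 24.9% for nito and 29.6% for Flacc (CG7358), in each case with no overlap with any library of another group. Markers of plasmatocytes, the phagocytic blood cells of flies, summed to between 738 and 761 CPM (counts as a share of the library's scaled total) in Nito, between 857 and 872 CPM in Vir and between 899 and 911 CPM in CG7358, all below the 936 to 956 CPM of Ctr. The sums of Fl2d (873 to 940 CPM) and Ime4_dMettl14 (932 to 968 CPM) overlapped Ctr. The scavenger receptor gene crq and the GATA factor gene srp were the most abundant of these 10 markers, whereas the plasmatocyte marker NimC1 stayed between 0.0601 and 1.1 CPM. The 12 matched markers of crystal cells, lamellocytes, neurons, muscle and germline summed to between 60.4 and 87.6 CPM in any knockdown and between 69.9 and 78.8 CPM in Ctr. Most of that sum was the lamellocyte gene PPO3 and the neuronal gene elav, and 6 of the 12 (lz, atilla, nSyb, Syt1, Mhc and Mlc2) stayed under 1 CPM in every library. The sums hide changes of single markers. Of the 7 of these 12 that were tested, 2 were called higher (brp and nanos) and 2 lower (PPO2 and osk) in Nito. In CG7358 2 were called higher (PPO3 and osk), and in Vir 1 was called lower (PPO2). In Ime4_dMettl14 and Fl2d 0 were called. The plasmatocyte markers did not move together: of the 9 tested, 4 were called lower and 1 higher in Nito, 3 lower and 2 higher in Vir, and 2 lower and 4 higher in CG7358. In Nito the markers Sr-CI (−0.92), srp (−0.62) and crq (−0.29) fell, by log2 fold change, while eater rose (0.54, adjusted p = 4.26e-05). The lower sums of Nito, Vir and CG7358 accompanied the changes described here, and their part in them was not tested.

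As background, the proteins encoded by Mcm2 to Mcm7 form a ring-shaped hexamer, with 1 copy of each, that is loaded onto origins in G1 and unwinds DNA at the fork in S phase. In flies the Mcm4 subunit is encoded by dpa (disc proliferation abnormal). PCNA encircles DNA behind the fork and tethers polymerases, and RnrL is the large subunit of the enzyme that makes deoxyribonucleotides. Dp pairs with E2F proteins to form the transcription factor that controls replication genes at the G1/S boundary, and CycE activates Cdk2 there. The genes knocked down encode proteins of the complex that methylates adenosines in mRNA (m6A): Ime4 and dMettl14 are the catalytic pair, and Fl(2)d, Vir, Nito and CG7358 (Flacc) are its regulatory subunits. Nito (spenito) is an RNA-binding protein of the Spen family.

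The 9 genes were all well expressed, with between 955 and 8914 counts in any library. Per kilobase of exon, the Ctr level was 377 ± 2.47 CPM per kb for PCNA and 132 ± 2.49 for RnrL, followed by 93.9 ± 0.689 for Dp (mean ± SD, n = 3). The measured helicase genes lay lower, from 79.1 ± 2.02 CPM per kb for dpa to 45 ± 0.908 for Mcm5, and CycE was lowest of the 9 at 14.6 ± 0.427. The genes lie apart in the genome. In assembly BDGP6, Mcm2 (FBgn0014861) lies at 3R:8264970-8267924, Mcm5 (FBgn0017577) at 3R:10788524-10791150, dpa (FBgn0015929) at 2R:7496702-7500145, Mcm6 (FBgn0025815) at X:6674387-6677176 and Mcm7 (FBgn0020633) at 3L:8891596-8894310. PCNA (FBgn0005655) lies at 2R:20261754-20262883, RnrL (FBgn0011703) at 2L:10325026-10327943, CycE (FBgn0010382) at 2L:15727581-15748150 and Dp (FBgn0011763) at 2R:13222433-13228202. An antisense gene, asRNA:CR45871, covers 81.7% of the exon bases of Mcm7 but itself had 1 to 4 counts per library. Antisense or neighbouring genes overlap 4.91% of the exon bases of CycE and 0.844% of those of Dp, and the other 6 genes share no exon base with another gene.

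For 5 of the 9 genes (dpa, Mcm5, Mcm6, Mcm7 and PCNA) the estimate against Ctr was positive in Nito and negative in each of the other 4 knockdowns. These signs include uncalled estimates, such as those of PCNA in Fl2d (−0.03), Vir (−0.01) and CG7358 (−0.02). The share of all tested genes with this pattern was not counted. Nor was the share with groups that do not overlap, a trait given below for single genes. Mcm2 and CycE had negative estimates and Dp positive ones in all 5 knockdowns, and RnrL was positive in Nito and Vir. In Nito cells 7 of the 9 rose against Ctr (dpa, Mcm5, Mcm6, Mcm7, PCNA, RnrL and Dp) and CycE fell. Of all tested genes, 29.8% were higher and 30.9% lower in Nito at the same threshold, an adjusted p under 0.05. In Ime4_dMettl14, Fl2d, Vir and CG7358 cells the changed helicase genes all fell: Mcm2 and Mcm5 fell in all 4, and dpa, Mcm6 and Mcm7 each fell in 3 of them. Some of these calls were lost when 1 library was left out, as given below. No change was large, with folds against Ctr between 0.775 and 1.33. The test was passed by 31 of the 45 pairs of a gene and a knockdown. Among all tested genes, 5.63% passed in Ime4_dMettl14, 32.0% in Fl2d, 34.0% in Vir, 60.7% in Nito and 37.6% in CG7358. All 9 genes differed among the 6 groups by the quasi-likelihood F test (adjusted p between 1.72e-14 for dpa and 0.000115 for Mcm2), where 76.9% of all tested genes did. Libraries measure the pooled culture, so a level that differs in every cell and a different share of cells with a high level cannot be told apart.

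**Figure D1:**
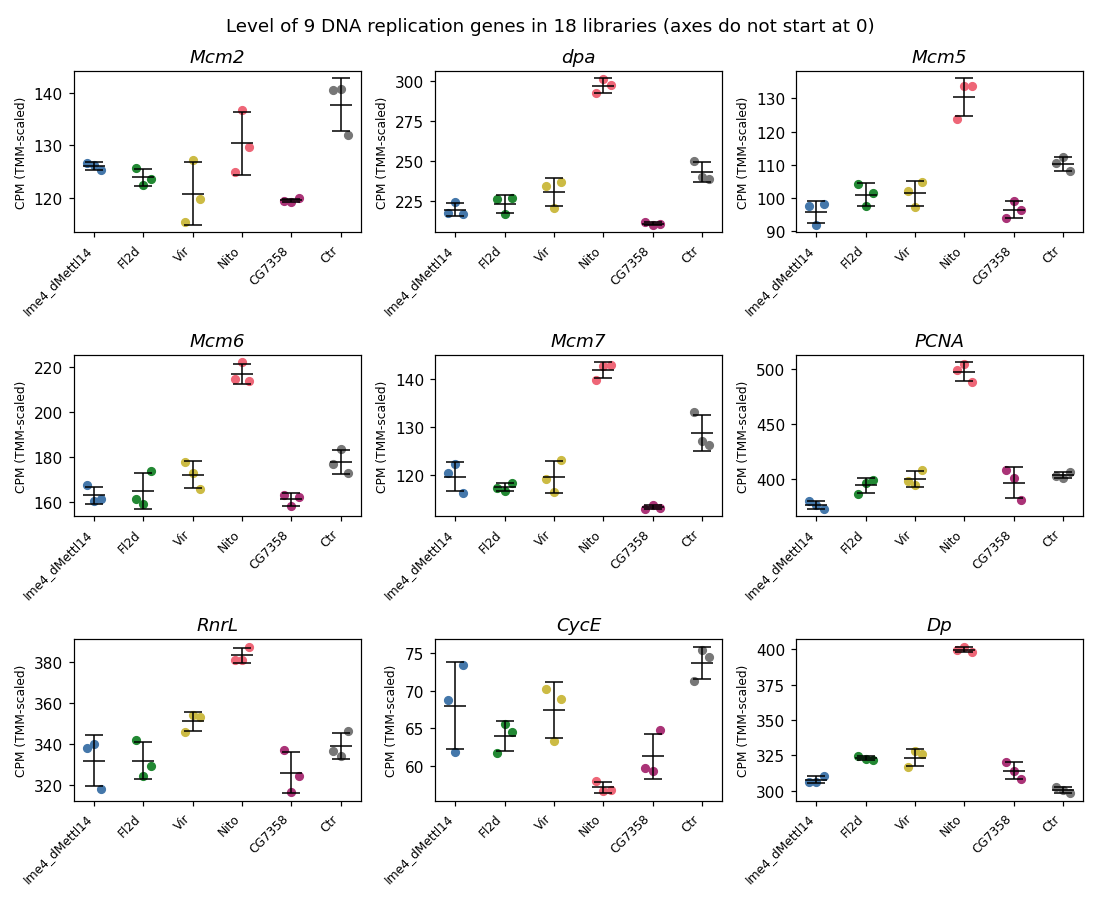
Level of each of the 9 genes in every library. Each panel is 1 gene, and the vertical axis is CPM scaled by TMM (not starting at 0). Points are libraries and black bars give the mean ± SD of the 3 libraries of a group. The Nito points lie above all others for dpa, Mcm5, Mcm6, Mcm7, PCNA, RnrL and Dp and below all others for CycE. How many of all tested genes are separated in this way was not counted, while 60.7% of them were called in Nito against Ctr.

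Among the helicase genes, dpa had the widest range between groups. Its levels were 293, 302 and 298 CPM in the Nito libraries, against 250, 240 and 239 CPM in the Ctr libraries. In the other knockdowns it had 218, 224 and 217 CPM (Ime4_dMettl14), 226, 217 and 227 CPM (Fl2d), 234, 221 and 237 CPM (Vir), and 212, 210 and 211 CPM (CG7358). All 3 Nito libraries were above, and all 12 libraries of the other knockdowns below, every Ctr library. The log2 fold change against Ctr was 0.29 ± 0.03 (SE) in Nito (adjusted p = 1.15e-09). It was −0.15 ± 0.03 in Ime4_dMettl14 (adjusted p = 0.00323), −0.12 ± 0.03 in Fl2d (adjusted p = 0.0027) and −0.20 ± 0.03 in CG7358 (adjusted p = 3.78e-06). In Vir it was −0.07 ± 0.03 and did not pass (adjusted p = 0.0612), although it passed at −0.09 without Vir replicate 3 (adjusted p = 0.0418) and at −0.13 with libraries scaled by total counts (adjusted p = 0.00374).

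Mcm5 was likewise highest in Nito. It had 124, 134 and 134 CPM in Nito libraries, and 110, 112 and 108 CPM in Ctr libraries. The Ime4_dMettl14 libraries had 97.4, 91.8 and 98 CPM, the Fl2d libraries 104, 97.4 and 101 CPM, the Vir libraries 102, 97.4 and 104.8 CPM, and the CG7358 libraries 93.9, 99 and 96.2 CPM. No library of these 4 knockdowns reached the lowest Ctr library. Mcm5 rose in Nito (log2 fold change 0.24 ± 0.04, adjusted p = 3.96e-06). It fell in the other 4 knockdowns: in Ime4_dMettl14 (−0.20 ± 0.04, adjusted p = 0.00163), CG7358 (−0.19 ± 0.04, adjusted p = 0.000294), Fl2d (−0.13 ± 0.04, adjusted p = 0.0161) and Vir (−0.12 ± 0.04, adjusted p = 0.0204). The call in Fl2d was lost without Ctr replicate 2 (adjusted p = 0.0562) or Fl2d replicate 2 (adjusted p = 0.0723). The call in Vir was lost without Ctr replicate 2 (adjusted p = 0.0892), Vir replicate 1 (adjusted p = 0.0502) or Vir replicate 2 (adjusted p = 0.123).

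Mcm6 had 215, 222 and 214 CPM in Nito libraries, and 177, 183 and 173 CPM in Ctr libraries. Its 12 libraries in the other knockdowns ran from 158 CPM in CG7358 to 178 CPM in Vir, and those of Fl2d and Vir overlapped Ctr. It rose in Nito (0.29 ± 0.03, adjusted p = 2.32e-08). Falls passed the test in Ime4_dMettl14 (−0.12 ± 0.04, adjusted p = 0.032), Fl2d (−0.11 ± 0.04, adjusted p = 0.0188) and CG7358 (−0.14 ± 0.04, adjusted p = 0.00201). In Vir the value was −0.05 ± 0.04 (adjusted p = 0.343). The fall in Fl2d did not pass without Ctr replicate 2, Fl2d replicate 1 or Fl2d replicate 2 (adjusted p = 0.0847, 0.052 and 0.0808). The fall in Ime4_dMettl14 passed in only 2 of 6 settings that left out 1 library (adjusted p up to 0.204).

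Mcm7 had 140, 143 and 143 CPM in Nito libraries, and 133, 127 and 126 CPM in Ctr libraries. The lowest group was CG7358, with 113, 114 and 113 CPM, and the 9 libraries of Ime4_dMettl14, Fl2d and Vir lay between 116 and 123 CPM. No knockdown overlapped Ctr. Mcm7 rose in Nito with a log2 fold change of 0.14 ± 0.03 (adjusted p = 0.000604). It fell in Fl2d (−0.13 ± 0.03, adjusted p = 0.00255), Vir (−0.11 ± 0.03, adjusted p = 0.0126) and CG7358 (−0.19 ± 0.03, adjusted p = 5.03e-05), and the value in Ime4_dMettl14 was −0.11 ± 0.03 (adjusted p = 0.0551). In Vir the call was lost without Ctr replicate 1 (adjusted p = 0.0903), Vir replicate 1 (0.05) or Vir replicate 2 (0.0767).

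Mcm2 departed from the other helicase genes, being highest in Ctr and not in Nito. It had 125, 137 and 130 CPM in Nito libraries, against 141, 141 and 132 CPM in Ctr libraries. The other knockdowns had 127, 126 and 125 CPM (Ime4_dMettl14), 126, 122 and 124 CPM (Fl2d), 115, 127 and 120 CPM (Vir), and 119, 119 and 120 CPM (CG7358). The Nito libraries overlapped Ctr, while the other 12 libraries were all below it. Mcm2 fell in Ime4_dMettl14 (−0.13 ± 0.04, adjusted p = 0.037), Fl2d (−0.15 ± 0.04, adjusted p = 0.00223), Vir (−0.19 ± 0.04, adjusted p = 0.000184) and CG7358 (−0.21 ± 0.04, adjusted p = 6.29e-05). In Nito its log2 fold change was −0.08 ± 0.04 and just missed the threshold (adjusted p = 0.0697). It passed as a fall of −0.12 without Ctr replicate 3 (adjusted p = 0.0171) or without Nito replicate 2 (adjusted p = 0.0176). It also passed as a fall when scaled by total counts (−0.09, adjusted p = 0.0439) and with no filter on low counts (−0.10, adjusted p = 0.0284). The call of Mcm2 in Ime4_dMettl14 passed in only 1 of 6 settings that left out 1 library (adjusted p up to 0.192). Under DESeq2 it was lost (adjusted p = 0.0596).

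**Figure D2:**
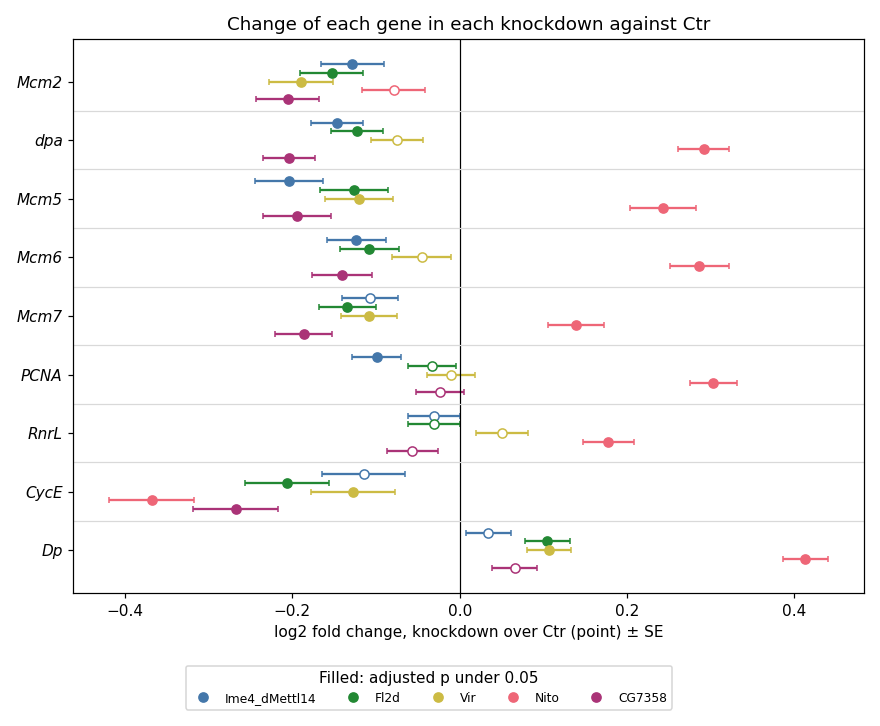
Log2 fold change of each gene in each knockdown over Ctr. Points are estimates from a model of all 18 libraries, bars are ± SE, filled points have an adjusted p under 0.05; among the 5 helicase genes the points above 0 are those of Nito for dpa, Mcm5, Mcm6 and Mcm7, while Mcm2 in Nito is at −0.08 and unfilled.

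The proportions of the helicase transcripts, whose proteins join in equal numbers, were compared between Nito and Ctr cells. Of the summed CPM per kb of the 5 measured helicase genes, Mcm2 made up 13.6% ± 0.326 in Nito and 16.5% ± 0.267 in Ctr (mean ± SD, n = 3 each), a difference of −2.9 percentage points. The share of dpa was 29.3% ± 0.209 in Nito and 27.5% ± 0.49 in Ctr, and that of Mcm6 was 23.5% ± 0.345 in Nito and 22.1% ± 0.497 in Ctr. Mcm7 made up 17.5% ± 0.236 in Nito and 18.3% ± 0.35 in Ctr. For these 4 genes the Nito and Ctr libraries did not overlap, and the two-sided exact permutation test gave p = 0.1, the smallest value that 3 against 3 libraries allow. For Mcm5, at 16.1% ± 0.411 in Nito and 15.6% ± 0.22 in Ctr, the libraries overlapped (exact permutation p = 0.3). In the other 4 knockdowns the Mcm2 share averaged between 15.5% and 16.6%. The 5 shares sum to the whole, so they are not independent of each other.

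**Figure D3:**
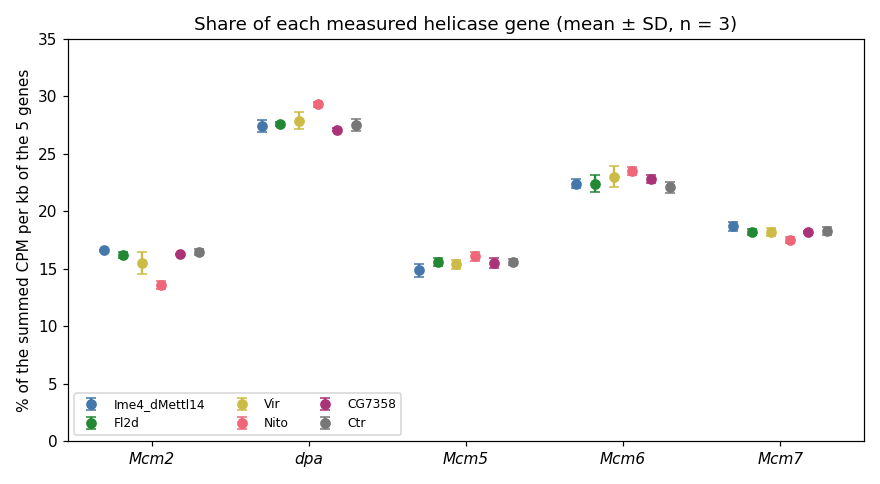
Share of each measured helicase gene in the summed CPM per kb of the 5 genes, in percent. Points are means and bars ± SD over the 3 libraries of a group; Mcm2 sits at 13.6% in Nito, against 16.5% in Ctr, and dpa at 29.3% in Nito, against 27.5% in Ctr.

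PCNA passed the test against Ctr in Nito and in Ime4_dMettl14. It had 500, 505 and 489 CPM in Nito libraries and 381, 377 and 373 CPM in Ime4_dMettl14 libraries, against 403, 401 and 406 CPM in Ctr libraries. Neither group overlapped Ctr, and Fl2d, though not called, did not overlap it either. PCNA rose in Nito (0.30 ± 0.03, adjusted p = 1.09e-10) and fell in Ime4_dMettl14 (−0.10 ± 0.03, adjusted p = 0.0345). In Fl2d (387, 397 and 400 CPM), Vir (398, 395 and 409 CPM) and CG7358 (409, 401 and 381 CPM) its log2 fold changes were −0.03 ± 0.03, −0.01 ± 0.03 and −0.02 ± 0.03, none past the threshold (adjusted p = 0.409, 0.818 and 0.549). The fall in Ime4_dMettl14 did not pass when any 1 of the 6 libraries compared was left out (adjusted p up to 0.159).

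RnrL passed the test against Ctr in Nito and in none of the other 4 knockdowns. It had 381, 381 and 388 CPM in Nito libraries, against 336, 334 and 346 CPM in Ctr libraries, a log2 fold change of 0.18 ± 0.03 (adjusted p = 9.86e-06). The 12 libraries of the other knockdowns ran from 317 to 354 CPM and overlapped Ctr in each group. Their log2 fold changes lay between −0.06 in CG7358 and 0.05 in Vir, with adjusted p between 0.152 and 0.655.

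CycE and Dp, the G1/S genes, moved in opposite directions. CycE had 58, 56.6 and 56.8 CPM in Nito libraries and 59.7, 59.3 and 64.7 CPM in CG7358 libraries, against 71.3, 75.4 and 74.4 CPM in Ctr libraries. It had 68.8, 61.9 and 73.4 CPM in Ime4_dMettl14, 61.7, 65.6 and 64.4 CPM in Fl2d, and 70.3, 63.3 and 68.9 CPM in Vir. Every group but Ime4_dMettl14 lay below all Ctr libraries. CycE fell in Nito (−0.37 ± 0.05, adjusted p = 2.06e-07), CG7358 (−0.27 ± 0.05, adjusted p = 8.28e-05), Fl2d (−0.21 ± 0.05, adjusted p = 0.00194) and Vir (−0.13 ± 0.05, adjusted p = 0.0481), and its value in Ime4_dMettl14 was −0.11 ± 0.05 (adjusted p = 0.2). The call in Vir was near the threshold and was lost without Ctr replicate 2 or 3 (adjusted p = 0.15 and 0.107) and without Vir replicate 2 or 3 (adjusted p = 0.244 and 0.0575), and under DESeq2 (adjusted p = 0.106). Of the genes overlapping CycE, asRNA:CR44866 had 0 to 2 counts and lncRNA:CR44974 had 11 to 41 counts per library.

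Dp had 399, 402 and 398 CPM in Nito libraries, against 303, 300 and 298 CPM in Ctr libraries. It had 306, 306 and 310 CPM in Ime4_dMettl14, 324, 322 and 322 CPM in Fl2d, 316, 328 and 326 CPM in Vir, and 321, 314 and 308 CPM in CG7358. By these TMM-scaled values all 15 knockdown libraries were above all 3 Ctr libraries, those of Nito by the widest margin. Dp rose by 0.41 ± 0.03 in Nito (adjusted p = 1.23e-14), the largest change of the 9 genes in any knockdown. It rose by 0.10 ± 0.03 in Fl2d (adjusted p = 0.00274) and 0.11 ± 0.03 in Vir (adjusted p = 0.00204), and had 0.07 ± 0.03 in CG7358 (adjusted p = 0.0514) and 0.03 ± 0.03 in Ime4_dMettl14 (adjusted p = 0.532). With libraries scaled by total counts, the rises in Fl2d and Vir were 0.06 and 0.06 and no longer passed (adjusted p = 0.137 and 0.141). The value in CG7358 was then 0.01 (adjusted p = 0.899), and whether its libraries stay above Ctr under that scaling was not examined.

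Counted over the 9 genes, 0 rose and 5 fell in Ime4_dMettl14, where 5.63% of all tested genes were called, 3.01% as higher and 2.63% as lower. In Fl2d 1 rose and 6 fell, against a background of 32.0% called, 16% in each direction. In Vir 1 rose and 4 fell, where the background was 34.0%, with 16.7% higher and 17.3% lower. In Nito 7 rose and 1 fell, where 60.7% of all genes were called in either direction. In CG7358 0 rose and 6 fell, where 37.6% were called, 18.8% in each direction. Neither edgeR, as described above, nor DESeq2 called any of the 9 higher in Ime4_dMettl14 or CG7358, but with only genes above 5 CPM in 3 libraries kept, edgeR called Dp higher in CG7358 (0.07, adjusted p = 0.025). At an unadjusted p under 0.05 the count higher was 0 in Ime4_dMettl14 and 1 (Dp) in CG7358. The median log2 fold change of the 9 was −0.11 in Ime4_dMettl14, −0.12 in Fl2d, −0.07 in Vir, 0.24 in Nito and −0.19 in CG7358, while that of all tested genes was 0.00 in each. These 5 comparisons share the 3 Ctr libraries. The Ime4_dMettl14 count of 5 fell to 2 without Ctr replicate 1, Ctr replicate 2, Ime4_dMettl14 replicate 2 or Ime4_dMettl14 replicate 3, and to 3 without Ime4_dMettl14 replicate 1. Its calls on dpa and Mcm5 passed in all of these, whereas Mcm2 passed in 1, Mcm6 in 2 and PCNA in 0 of the 6 left-out settings. The Vir count of 5 was 3 without Ctr replicate 2 or Vir replicate 1, and 2 without Vir replicate 2. The 8 calls of Nito and the 6 of CG7358 passed in every alternative tried. Scaled by total counts, the split was 0 higher and 7 lower in Fl2d, 0 and 6 in Vir, and 0 and 8 in CG7358, where PCNA and RnrL were then also called lower.

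The knockdowns were also compared with each other, by contrasts in the model of all 18 libraries. The Ctr libraries have no weight in these contrasts but share in the estimate of the spread. Against the mean of the other 4 knockdowns, Nito had all 9 genes called, 8 higher and 1 lower, where 64.7% of all genes were called, 32.3% higher and 32.5% lower. The rises were 0.43 ± 0.02 for dpa (adjusted p = 1.87e-16), 0.40 ± 0.03 for Mcm5, 0.39 ± 0.03 for Mcm6 and 0.27 ± 0.03 for Mcm7. PCNA rose by 0.34 ± 0.02, Dp by 0.34 ± 0.02 and RnrL by 0.19 ± 0.02, and CycE fell by 0.19 on the log2 scale (SE 0.04, adjusted p = 0.000155). Mcm2 was 0.09 ± 0.03 higher (adjusted p = 0.00896), a call that was lost without Nito replicate 2 (0.05, adjusted p = 0.178). The median of the 9 genes was 0.34, against 0.01 over all tested genes.

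The second comparison set Ime4_dMettl14, the catalytic pair, against the mean of Fl2d, Vir and CG7358. Of the 9 genes, 2 were called, both lower, where 34.3% of all tested genes were called, 17.1% higher and 17.2% lower. They were PCNA at −0.08 ± 0.02 (adjusted p = 0.0114) and Dp at −0.06 ± 0.02 (adjusted p = 0.0386). The call on PCNA passed in 6 of 7 alternatives and in 10 of 12 left-out settings, being lost without Ime4_dMettl14 replicate 2 (adjusted p = 0.0748) or replicate 3 (adjusted p = 0.124). The call on Dp passed in 3 of 7 alternatives and in 0 of 12 left-out settings, where its adjusted p reached 0.204. With only the groups compared in the fit, 1 of the 9 genes was called. Scaled by total counts, PCNA had −0.03 (adjusted p = 0.404) and Dp −0.01 (adjusted p = 0.813), and 3 others of the 9 (Mcm2, Mcm7 and CycE) were called higher instead. The 7 uncalled genes had values between −0.06 for Mcm5 and 0.09 for CycE.

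**Figure D4:**
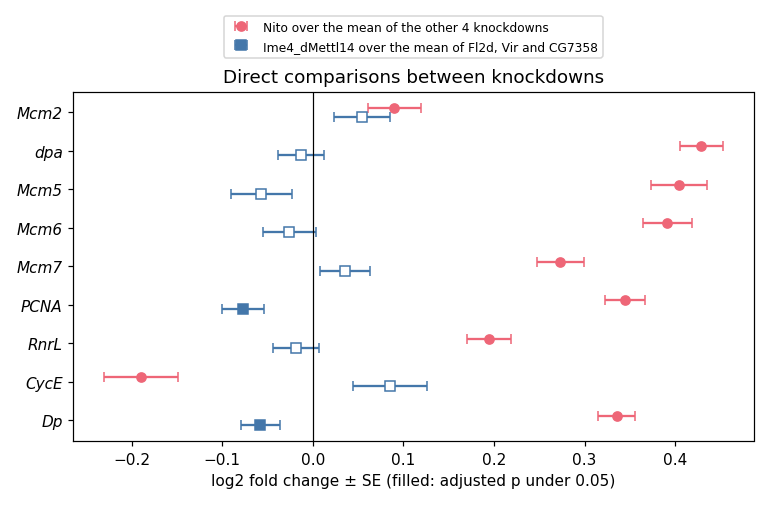
Direct comparisons between knockdowns for each gene, as log2 fold change ± SE on the horizontal axis, from the model of all 18 libraries. Circles give Nito over the mean of the other 4 knockdowns, from −0.19 for CycE to 0.43 for dpa, and squares give Ime4_dMettl14 over the mean of Fl2d, Vir and CG7358, of which PCNA and Dp are filled (adjusted p under 0.05).

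The order of the groups differed between genes. Nito had the highest mean level for 7 of the 9 genes and CG7358 the lowest for 5 (Mcm2, dpa, Mcm6, Mcm7 and RnrL). The ratio of the highest to the lowest group mean was 1.41 for dpa, 1.36 for Mcm5, 1.34 for Mcm6, 1.33 for Dp, 1.32 for PCNA, 1.29 for CycE, 1.25 for Mcm7, 1.18 for RnrL and 1.15 for Mcm2. For dpa the libraries separated Nito from Ctr, Ctr from Vir, and Ime4_dMettl14 from CG7358, while Vir, Fl2d and Ime4_dMettl14 overlapped as neighbours. For Mcm2 no 2 neighbouring groups were separated.

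The wider replication machinery was read from 5 lists totalling 77 genes besides the 9, of which 72 were matched and 70 tested. In Ime4_dMettl14 1 of these 70 rose and 11 fell, so that 17.1% were called, against 5.63% of all tested genes. In Fl2d 6 rose and 21 fell (38.6% called, against 32.0% of all genes), and in Vir 7 rose and 18 fell (35.7%, against 34.0%). In Nito 33 rose and 13 fell (65.7%, against 60.7%), and in CG7358 3 rose and 33 fell (51.4%, against 37.6%). The shares called in Fl2d, Vir and Nito were near those of all genes and are no result about the list. By direction, all genes had 3.01% higher and 2.63% lower in Ime4_dMettl14, 16% and 16% in Fl2d, 16.7% and 17.3% in Vir, 29.8% and 30.9% in Nito, and 18.8% and 18.8% in CG7358. The median log2 fold change of the 70 was −0.07 in Ime4_dMettl14, −0.07 in Fl2d, −0.05 in Vir, 0.11 in Nito and −0.11 in CG7358, beside 0.00 over all tested genes. Scaled by total counts, the split was 3 higher and 34 lower in Fl2d and 5 higher and 28 lower in Vir. Against the mean of the other 4 knockdowns, 47 of the 70 were higher and 8 lower in Nito, where 32.3% of all genes were higher and 32.5% lower.

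Among origin and loading genes, 6 of 10 tested rose and 2 fell in Nito (80% called, against 60.7% of all genes). DESeq2 called fewer of the 10 there, 5 higher and 1 lower, where it called 4417 of all tested genes and edgeR 4948. In CG7358 1 rose and 2 fell (30%, against 37.6%), in Fl2d likewise 1 and 2 (30%, against 32.0%), and in Vir 1 rose and 3 fell (40%, against 34.0%), shares near those of all genes. The largest rise in Nito was that of dup (0.38 ± 0.04, adjusted p = 1.11e-10), the fly Cdt1, which brings the helicase to origins. Its inhibitor geminin rose too (0.19 ± 0.04, adjusted p = 3.02e-05). The kinase gene Cdc7 fell in Fl2d (−0.32 ± 0.05), Vir (−0.29 ± 0.05) and CG7358 (−0.21 ± 0.05), and in Nito (−0.13 ± 0.05). The gene of its activating partner Dbf4, chif, rose in these 4: by 0.38 ± 0.04 in Fl2d, 0.20 ± 0.04 in Vir, 0.32 ± 0.04 in Nito and 0.23 ± 0.04 in CG7358. Orc6, of the origin recognition complex, fell in CG7358 (−0.41 ± 0.06, adjusted p = 3.40e-06), Vir (−0.35 ± 0.06), Nito (−0.18 ± 0.06) and Fl2d (−0.16 ± 0.06). In Ime4_dMettl14 0 of the 10 were called by edgeR and 0 by DESeq2, while 3 were lower at an unadjusted p under 0.05, and the median was −0.08. As edgeR called 5.63% of all genes there, a count of 0 among 10 is read no further.

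Of 17 tested genes of fork helicase and fork factors, 8 rose and 3 fell in Nito, a share called of 64.7% that is near the 60.7% of all genes. In CG7358 10 fell (58.8% called, against 37.6% of all genes) and in Fl2d 8 fell (47.1%, against 32.0%). In Vir 7 fell and 1 rose (47.1%, against 34.0%), and in Ime4_dMettl14 2 fell (11.8%, against 5.63%). No gene of this list was called higher in CG7358, Fl2d or Ime4_dMettl14 by edgeR or DESeq2, and 1, 1 and 0 were higher there at an unadjusted p under 0.05. Of all genes, edgeR called 18.8%, 16% and 3.01% higher in these 3 knockdowns. Mcm10, an activator of the helicase, rose by 0.41 ± 0.04 in Nito, the GINS gene Psf3 by 0.36 ± 0.05 and the chromatin assembly factor gene Caf1-180 by 0.42 ± 0.05. Cdc45, the partner of the helicase at the fork, fell in Fl2d (−0.22 ± 0.04), Vir (−0.17 ± 0.04) and CG7358 (−0.20 ± 0.04) and rose in Nito (0.25 ± 0.04). Ctf4, which couples helicase and polymerase, fell in Ime4_dMettl14 (−0.18 ± 0.03), Fl2d (−0.18 ± 0.03), Vir (−0.15 ± 0.03) and CG7358 (−0.18 ± 0.03), and was at 0.00 ± 0.03 in Nito. The fork protection gene timeout fell in all 5 knockdowns, Nito included: −0.19 ± 0.05 in Ime4_dMettl14, −0.36 ± 0.05 in Fl2d, −0.38 ± 0.05 in Vir, −0.78 ± 0.05 in Nito and −0.55 ± 0.05 in CG7358.

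Of 19 polymerase and clamp loader genes, 14 fell in CG7358 (73.7% called, against 37.6% of all genes). There 0 were higher even at an unadjusted p under 0.05 or under DESeq2, where edgeR called 18.8% of all genes higher. In Nito 8 rose and 4 fell, and the 63.2% called is near the 60.7% of all genes. In Fl2d 1 rose and 5 fell (31.6% called, near the 32.0% of all genes), and in Vir 1 rose and 2 fell (15.8%, below the 34.0% of all genes). PolA1, the catalytic subunit of polymerase alpha, fell in CG7358 (−0.31 ± 0.03, adjusted p = 1.07e-08) and in Fl2d (−0.16 ± 0.03), and rose in Nito (0.17 ± 0.03). Its partner PolA2 rose in Nito (0.33 ± 0.04) and fell in Fl2d (−0.17 ± 0.04) and CG7358 (−0.15 ± 0.04). Also higher in Nito was Gnf1, the large subunit of the clamp loader (0.31 ± 0.03), which was lower in CG7358 (−0.14 ± 0.03). Other genes of the list went the other way. CG34132 fell in Nito (−0.55 ± 0.07, adjusted p = 5.62e-08), and RfC4 rose in Fl2d (0.15 ± 0.03) and Vir (0.18 ± 0.03). The primase gene Prim1 fell in Fl2d (−0.35 ± 0.08), Vir (−0.42 ± 0.09) and CG7358 (−0.44 ± 0.09). In Ime4_dMettl14 5 of the 19 fell (26.3% called, against 5.63% of all genes), among them cutlet (−0.28 ± 0.06, adjusted p = 0.00664), PolA2 (−0.16 ± 0.04) and PolE1 (−0.13 ± 0.04).

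Of 7 nucleotide supply genes, 3 rose and 2 fell in Nito (71.4% called, against 60.7% of all genes). In CG7358 2 fell, in Fl2d 1 fell, and in Vir 3 fell and 1 rose, where 37.6%, 32.0% and 34.0% of all genes were called, and with 7 genes these counts are read no further. Higher in Nito were the nucleoside kinase gene dnk, at 0.30 ± 0.03, and the thymidylate synthase gene Ts, at 0.21 ± 0.04. CG5757 was lower there (−0.27 ± 0.05, adjusted p = 9.38e-06). RnrS, the small subunit that pairs with RnrL, rose in Nito (0.17 ± 0.03, adjusted p = 1.44e-05) and fell in Fl2d (−0.11 ± 0.03), Vir (−0.09 ± 0.03) and CG7358 (−0.14 ± 0.03). In Ime4_dMettl14 dnk (−0.14 ± 0.03) and Ts (−0.17 ± 0.04) fell.

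Of 17 G1/S control genes, 8 rose and 2 fell in Nito (58.8% called, against 60.7% of all genes), 2 rose and 5 fell in CG7358 (41.2%, against 37.6%), and 3 rose and 3 fell in Vir (35.3%, against 34.0%). These 3 shares are near those of all genes and are no result about the list. In Fl2d 4 rose and 5 fell (52.9%, against 32.0%), and in Ime4_dMettl14 1 rose and 2 fell (17.6%, against 5.63%). DESeq2 called fewer of the 17 in Fl2d, 3 higher and 3 lower, where it called 2109 of all tested genes and edgeR 2610. It called 1 higher and 1 lower in Ime4_dMettl14. CycD, the cyclin partner of Cdk4, rose in all 5 knockdowns: 0.19 ± 0.04 in Ime4_dMettl14, 0.14 ± 0.04 in Fl2d, 0.17 ± 0.04 in Vir, 0.52 ± 0.04 in Nito and 0.14 ± 0.04 in CG7358. The dacapo gene dap, which encodes the inhibitor of the CycE and Cdk2 kinase, was called in all 5 as well. It rose in Nito (0.27 ± 0.04). In the other 4 it fell, with −0.13 ± 0.04 in Ime4_dMettl14, −0.16 ± 0.04 in Fl2d, −0.15 ± 0.04 in Vir and −0.13 ± 0.04 in CG7358. Rbf, the retinoblastoma protein that restrains E2F and Dp, rose in Nito (0.37 ± 0.03, adjusted p = 9.49e-11). E2f1, the partner of Dp that activates transcription, rose in Fl2d (0.12 ± 0.03), Vir (0.10 ± 0.03), Nito (0.21 ± 0.03) and CG7358 (0.15 ± 0.03). In the Myb-MuvB complex mip120 fell in Fl2d (−0.17 ± 0.04), Vir (−0.26 ± 0.04) and CG7358 (−0.32 ± 0.04), and mip130 fell in Nito (−0.38 ± 0.04) and CG7358 (−0.12 ± 0.04).

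**Figure D5:**
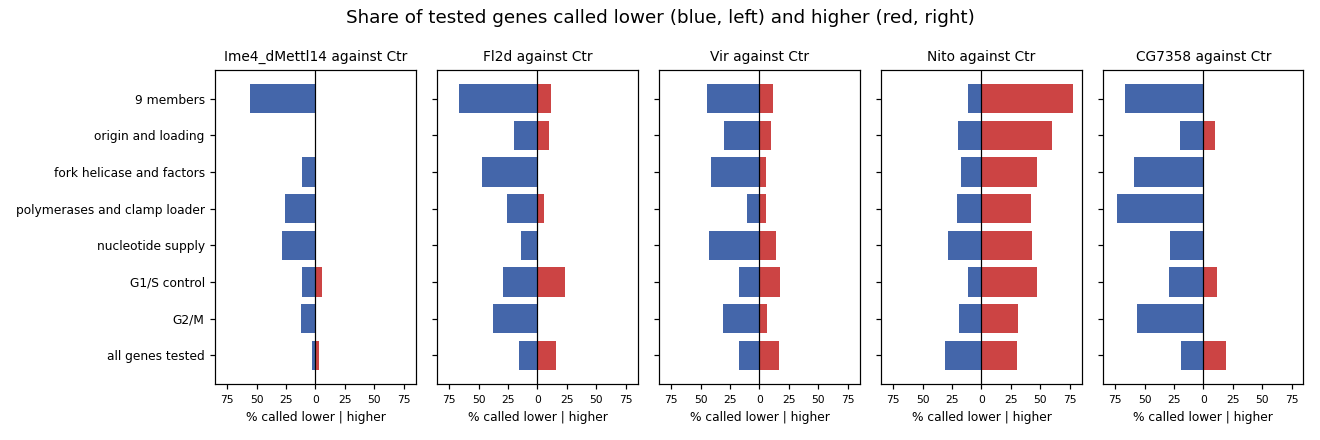
Share of the tested genes of each list called lower (blue, to the left) and higher (red, to the right) in each knockdown against Ctr, in percent. The bottom row gives all 8146 tested genes; in Nito 7 of the 9 genes at the top are to the right, and in CG7358 14 of the 19 polymerase and clamp loader genes are to the left.

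Mitotic genes were counted beside these lists. Of 16 G2/M genes, 5 rose and 3 fell in Nito (50% called, below the 60.7% of all genes). In Vir 1 rose and 5 fell (37.5%, near the 34.0% of all genes) and in Fl2d 6 fell (37.5%, near the 32.0% called in either direction but above the 16% lower). In CG7358 9 fell (56.2% called, against 37.6% of all genes), and in Ime4_dMettl14 2 fell (12.5%, against 5.63%). In Nito the mitotic kinase gene Cdk1 (0.23 ± 0.04), the cyclin gene CycB3 (0.21 ± 0.04) and the anaphase activator gene fzy (0.27 ± 0.03) rose, and the kinase gene aurA fell (−0.28 ± 0.04), as it did in Fl2d (−0.15 ± 0.04), Vir (−0.24 ± 0.04) and CG7358 (−0.19 ± 0.04). The kinase gene polo fell in Fl2d (−0.16 ± 0.03), Vir (−0.13 ± 0.03) and CG7358 (−0.19 ± 0.03). The part of cell cycle phase in the replication gene values was not tested.

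The likeness of expression patterns was measured as Pearson's r, over the 18 libraries, with the mean standardized log2 CPM of the 5 measured helicase genes. Set against the mean of the other 4, each helicase gene had r of 0.96 for Mcm7, 0.94 for dpa, 0.94 for Mcm5, 0.90 for Mcm6 and 0.53 for Mcm2. PCNA had 0.85, RnrL 0.81, Dp 0.72 and CycE −0.25. The median over the 6324 genes whose average log2 CPM reached 3 was −0.03. The Nito libraries lie apart from the rest in this profile, so r mostly follows the groups: for deviations from group means it was between 0.16 and 0.56 for the 5 helicase genes and between −0.15 and 0.10 for the other 4.

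The 8 genes outside the 9 with the highest r were Rcc1 (0.97), WRNexo (0.96), NSD (0.96), Caf1-180 (0.95), Rif1 (0.95), Hpf1 (0.95), sowah (0.95) and wapl (0.95). Of these, 1 (Caf1-180) was in the replication lists. Rcc1 encodes the chromatin-bound exchange factor of the GTPase Ran, and its log2 fold change was 0.14 in Nito and −0.14 in CG7358. WRNexo, an exonuclease related to that of the human Werner syndrome protein, was at 0.34 in Nito (adjusted p = 6.37e-09), −0.41 in CG7358 (adjusted p = 1.46e-09) and between −0.31 and −0.24 in the other 3 knockdowns, each called. Rif1, a regulator of replication timing, was at 0.37 in Nito and −0.19 in CG7358, and the cohesin release factor gene wapl at 0.30 in Nito and −0.20 in CG7358. These 8 were picked for their likeness over the same libraries, so their values are a description.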

How the data were processed

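Libraries were made from polyadenylated RNA of Trizol-isolated total RNA with a NEBNext kit that keeps strand, per the labels' protocols. Each library has a deposited file of raw read counts for every FlyBase ID. Per the submitters' processing notes, STAR 2.5.1b, featureCounts 1.5.1 and build BDGP6 were used; how strand and gene overlaps were handled is not given in the sources used here. Symbols and positions came from the Ensembl 115 annotation; 306 IDs without a symbol held 4.83% of counts and stayed in the tests.

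The test was that of edgeR 4.0.16 in R 4.3.3 (filterByExpr, TMM, robust quasi-likelihood fit over all 18 libraries, 1 coefficient per group), with Benjamini-Hochberg adjustment over 8146 genes; called means an adjusted p under 0.05. SE was derived from the fold change and its F statistic. The common biological coefficient of variation was 0.0432. Alternatives were DESeq2 1.42.0, other scalings and filters, a replicate block, fits to the compared groups alone and left-out libraries. Replicate numbers were not used as pairs in the main fit, because same-number correlations were low (−0.08 to 0.13). What the numbers stand for is not known here. Members and lists were chosen with earlier results of these data known. All members are named. From a list, at most 4 called genes per knockdown with the smallest p were eligible, plus any called in all 5. The script was tested on simulated data. No sequences were used.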

Additional observations from a re-analysis of the deposited data

Results flagged for a closer look

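For 5 genes the effect in Nito cells differed from that in the other 4 knockdowns, by the direct comparison of Nito against their mean in edgeR. Nito and every one of those 4 knockdowns also had estimates of opposite sign against Ctr, whether called or not. The 5 genes were picked by these same values, so what follows describes them and is no separate support. The log2 differences were 0.43 for dpa, 0.40 for Mcm5, 0.39 for Mcm6, 0.27 for Mcm7 and 0.34 for PCNA, and each passed in all 15 settings that left out 1 library. All 3 Nito libraries lay above all 12 libraries of the other knockdowns for each of these genes. In the same comparison 32.3% of all tested genes were called higher in Nito. How many of all genes were separated in this way was not counted.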

How the results depend on the processing

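Nito and CG7358 calls against Ctr held in all 7 alternative settings and on leaving out libraries. The least firm counts were those of Ime4_dMettl14 and Vir. Leaving out 1 library gave 2 to 4 genes called for Ime4_dMettl14 against Ctr, 2 to 5 for Vir, 5 to 7 for Fl2d, and 0 to 2 for Ime4_dMettl14 set against the 3 regulatory knockdowns (Fl2d, Vir and CG7358) averaged. That last count was 1 without a filter on low counts, 1 under DESeq2 and 1 with only the groups compared in the fit. Total-count scaling made 3 of its uncalled values positive: 0.04 for dpa, 0.02 for Mcm6 and 0.03 for RnrL. Leaving out 1 library also turned uncalled values there (dpa between −0.02 and 0.01, RnrL between −0.03 and 0.02), RnrL in Ime4_dMettl14 (−0.05 to 0.01) and PCNA in CG7358 (−0.05 to 0.00). Total-count scaling moved the median of all genes by −0.05 in Fl2d, −0.05 in Vir and −0.06 in CG7358, with all-gene calls split 892 higher and 2051 lower in Fl2d (main 1306 and 1304), 922 and 2117 in Vir (main 1362 and 1406), and 947 and 2375 in CG7358 (main 1532 and 1532). The cause was not tested. The 459 genes called in Ime4_dMettl14 against Ctr became 233 to 364 on leaving out 1 library. The labels' replicate numbers gave same-number correlations of −0.08 to 0.13, and 6 of 15 knockdown libraries correlated best with their own control number; with a replicate block the count was 5 for Ime4_dMettl14 and 8 for Nito, and it changed in 0 comparisons.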
